A study of Rattus norvegicus with 24 samples.

Results

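The genes described here build the major histocompatibility complex (MHC) class I antigen presentation pathway of the rat. The 9 genes were taken by name from the 17303 genes of a bulk RNA-seq table: the class I heavy chains RT1-A1, RT1-A2 and RT1-CE5, their light chain B2m, the peptide transporter subunits Tap1 and Tap2, the loading chaperone Tapbp, and the immunoproteasome subunits Psmb8 and Psmb9. The study asked how immune activation in pregnancy and stress in adolescence act on the adult striatum. Bulk tissue of the nucleus accumbens (NAc) and of the dorsolateral striatum (DLS) came from male Sprague-Dawley rats killed at postnatal day 90. In each region, 4 groups of 3 libraries were compared. LPS stressed rats were born to dams given lipopolysaccharide (LPS, a bacterial cell wall component) on gestational days 15 and 16 and met unpredictable stress in adolescence. Saline stressed rats had saline-treated dams and the same stress, and LPS unstressed rats had LPS-treated dams and were handled without stress. Saline unstressed rats, with saline-treated dams and handling alone, were the controls. The labels do not say which rats shared a litter or whether an NAc and a DLS library came from one rat, so p-values reflect how much these samples vary and nothing wider.

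Class I molecules carry fragments of a cell's own proteins to its surface, where CD8 T cells and natural killer cells read them. The proteasome cuts proteins into peptides, and interferon can exchange its catalytic subunits for Psmb8 and Psmb9. The TAP transporter moves peptides into the endoplasmic reticulum, tapasin (Tapbp) holds the empty class I molecule next to the transporter, and B2m pairs with each heavy chain to make a stable complex. In the healthy brain class I expression is low compared with most organs, is found in endothelium, microglia and some neurons, and has been tied in rodents to synapse remodelling.

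All markers of striatal neurons that were listed, 16 of 16, were above the table's lowest value in every library, among them Drd1, Drd2 and Ppp1r1b. The table lists each value as digits without a decimal point, so a value is known only up to a power of 10 and absolute levels and depth are unknown. Levels between genes were therefore not compared. A gene was read only where its libraries lay within a 3.162-fold range (0.5 decades), and its values are given as relative levels, where 1 is the geometric mean of the control libraries. Any group difference wider than that range cannot be seen. The number of genes at the lowest value, written as 1, was between 3838 and 4463 per library.

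Of the 9 genes, 7 could be read in DLS, 8 in NAc and 5 across both regions. Tap2 was listed as 1 in 22 of 24 libraries and stood above 1 only in NAc saline stressed replicate 1 and NAc LPS unstressed replicate 3, so it was not tested. Psmb9 spanned 4.82-fold in DLS and was tested in NAc alone. RT1-A1 (3.68-fold) and Psmb8 (3.88-fold) spanned too much across all 24 libraries and were tested within each region. In the deposited coordinates B2m lies on chromosome 3 (start 120627498, end 120633523), and the other 8 genes lie on chromosome 20. There Psmb9 (6052971 to 6058393), Tap1 (6058849 to 6069217), Psmb8 (6070356 to 6073320) and Tap2 (6075091 to 6089133) follow each other. RT1-A2 (7433458 to 7436984), RT1-A1 (7474638 to 7478156) and Tapbp (7526667 to 7534619) stand further along the chromosome. The locus listed for RT1-CE5 (6718276 to 7038454) overlaps 19 other listed genes, among them RT1-CE2, RT1-CE4 and Tnf, so its value is uncertain. RT1 genes form a family of near-identical copies whose reads can be split between members, which makes RT1-A1 and RT1-A2 uncertain as well. The exon and untranslated structure of the loci was not used here.

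Promoter sequence shows what the members share beyond their names. RefSeq (assembly GRCr8) gives a 300-base promoter for each of the 9 genes. Short stretches around the matches are shown to compare the class I chains with the genes of the peptide pathway. Capitals mark matches, on either strand, to GGGGATTCC (the NF-kB site of the class I enhancer), to GAAANNGAA (the core of the interferon-stimulated response element) or to GAANNGAAA, the last of which was added after the promoters had been read. All stretches run 5′ to 3′ on the strand of the gene.
RT1-A1: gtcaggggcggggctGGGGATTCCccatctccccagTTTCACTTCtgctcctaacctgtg
RT1-A2: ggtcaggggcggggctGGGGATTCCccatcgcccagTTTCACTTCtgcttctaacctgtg
RT1-CE5: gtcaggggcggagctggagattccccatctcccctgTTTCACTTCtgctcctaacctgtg
B2m: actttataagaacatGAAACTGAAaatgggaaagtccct
Tap1: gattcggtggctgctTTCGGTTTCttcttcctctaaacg
Tap2: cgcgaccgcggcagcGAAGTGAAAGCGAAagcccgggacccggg
Tapbp: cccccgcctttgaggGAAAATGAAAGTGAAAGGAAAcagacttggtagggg
Psmb8: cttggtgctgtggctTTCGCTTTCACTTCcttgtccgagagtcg
In GRCr8 these stretches lie at chr20:4907068-4907127 (plus strand) for RT1-A1, chr20:4872681-4872740 (plus) for RT1-A2, chr20:3484213-3484272 (minus) for RT1-CE5, chr3:129549165-129549203 (plus) for B2m, chr20:4668640-4668678 (minus) for Tap1, chr20:4652314-4652357 (minus) for Tap2, chr20:4967868-4967918 (minus) for Tapbp and chr20:4657006-4657049 (minus) for Psmb8.

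GGGGATTCC stood in the promoters of RT1-A1 and RT1-A2, 2 of the 9 members, and in 0.281% of all 33469 rat promoters of the same length. RT1-CE5 differed from it at one base, G3A, counted from 1 at the first base of the site. GAAANNGAA was found in 5 members (B2m, Tap1, Tap2, Tapbp and Psmb8) and in 9.71% of all promoters. GAANNGAAA was found in 6 members (the 3 heavy chains, Tap2, Tapbp and Psmb8) and in 8.54% of all promoters, and it overlaps GAAANNGAA in Tap2, Tapbp and Psmb8. Because it was picked after these promoters had been read, its count among the members is no test of enrichment. The stretches of the 3 heavy chains are also near-identical. Psmb9 was the one member with neither GAAANNGAA nor GAANNGAAA in its window. The gamma-activated site TTCNNNGAA was present in Psmb8 alone and in 8.87% of all promoters. These are letter matches within a fixed window and say nothing of which factor binds.

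In DLS the 7 readable genes were all higher on average in the 6 stressed libraries than in the 6 unstressed ones, by a median log2 difference of 0.39. Single libraries overlapped, and no single gene passed the test over all genes. The largest differences were those of Psmb8 (0.64 ± 0.21, log2 difference ± SE), RT1-CE5 (0.57 ± 0.15) and RT1-A1 (0.48 ± 0.19). RT1-A2 (0.39 ± 0.12), B2m (0.32 ± 0.13) and Tap1 (0.31 ± 0.20) followed, and Tapbp was nearly level (0.07 ± 0.12). Tap1 was at 0.13 without LPS stressed replicate 1. Of all 9275 genes tested, 52.6% were higher in stressed libraries and their median was 0.01. At an unadjusted p under 0.05, 5 of the 7 members were higher (all but Tap1 and Tapbp), against 3.72% of all genes. After Benjamini-Hochberg adjustment over all genes 0% of genes passed (limma, 676 genes at an unadjusted p under 0.05), and adjusted p was 0.637 for the 5 genes, 0.647 for Tap1 and 0.859 for Tapbp. RT1-CE5 had the smallest p of the members, 27th of all genes. With array weights, which let libraries differ in precision, 217 genes passed, among them Psmb8 (adjusted p = 0.0446), RT1-A1 (0.0465) and RT1-CE5 (0.0332). The lowest weight in DLS, 0.233, fell on LPS stressed replicate 3, a stressed library that lay among the controls for RT1-A1 and RT1-CE5. In bulk tissue, more RNA per cell and more cells of a type cannot be told apart.

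**Figure D1:**
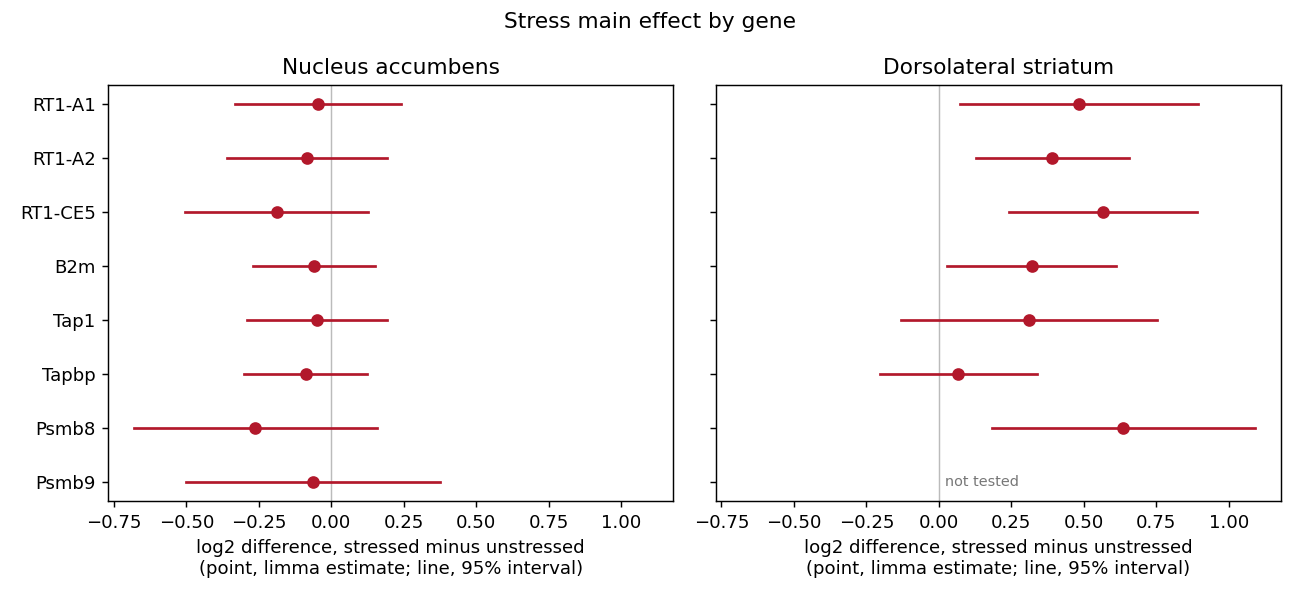
The log2 difference between stressed and unstressed libraries is plotted for each member in NAc (left) and DLS (right), 6 libraries against 6 in each region; points are limma estimates and lines 95% intervals. In DLS the points lie between 0.07 and 0.64, and in NAc between -0.26 and -0.04.

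Among the heavy chains, RT1-A1, a classical class I chain, had relative levels of 2.42, 2.04 and 1.07 in LPS stressed DLS libraries, 1.78, 1.68 and 1.53 in saline stressed, 1.44, 1.84 and 1.23 in LPS unstressed and 0.82, 1.06 and 1.16 in saline unstressed. All saline stressed and all LPS unstressed libraries stood above the highest control, whereas LPS stressed replicate 3 lay among the controls. Against controls the log2 difference was 0.73 ± 0.27 in saline stressed rats, 0.57 ± 0.27 in LPS unstressed rats and 0.80 ± 0.27 in LPS stressed rats, with adjusted p of 0.297, 0.967 and 0.908.

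RT1-A2, the other classical chain, had relative levels of 1.31, 1.20 and 1.53 in LPS stressed libraries, 1.47, 1.52 and 1.44 in saline stressed, 0.96, 1.19 and 1.34 in LPS unstressed and 0.98, 0.84 and 1.22 in saline unstressed. The saline stressed libraries were tightly grouped above every control, and the LPS unstressed libraries overlapped the controls. Its log2 difference was 0.57 ± 0.17 in saline stressed rats and 0.42 ± 0.17 in LPS stressed rats. RT1-CE5, a chain of the nonclassical class I region, was at 1.82, 1.66 and 1.07 in LPS stressed, 1.58, 1.49 and 1.27 in saline stressed, 0.83, 1.00 and 1.10 in LPS unstressed and 0.82, 1.05 and 1.16 in saline unstressed libraries. Here the LPS unstressed libraries spanned nearly the same range as the controls (log2 difference -0.04 ± 0.21), and 5 of the 6 stressed libraries exceeded every unstressed one.

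B2m, the shared light chain, had relative levels of 1.65, 1.55 and 1.17 in LPS stressed libraries, 1.51, 1.42 and 1.22 in saline stressed, 1.22, 1.61 and 1.05 in LPS unstressed and 0.89, 1.13 and 0.99 in saline unstressed. Each of the 6 stressed libraries exceeded the highest control. The log2 difference from controls was 0.53 ± 0.19 in LPS stressed rats, 0.46 ± 0.19 in saline stressed rats and 0.35 ± 0.19 in LPS unstressed rats, where it was 0.18 without replicate 2. B2m and RT1-A1, whose proteins bind each other, varied together over the 12 DLS libraries (Pearson r = 0.94, permutation p = 1e-05, the smallest that the permutations can give, adjusted p = 0.00064; Spearman rho = 0.93, adjusted p = 0.00192). The r was 0.89 without the 2 libraries farthest from the B2m median and 0.87 within groups. In NAc it was 0.78 (permutation p = 0.00173, adjusted p = 0.0185; rho = 0.73, adjusted p = 0.0676), 0.83 without the 2 farthest libraries and 0.83 within groups. These are 2 of 64 relations computed in the same family, and the 12 libraries of a region share its 4 groups. The other heavy chains, which also pair with B2m, had lower r with it in DLS. RT1-CE5 was at 0.69 (0.59 within groups) and RT1-A2 at 0.35 (-0.38 within groups). B2m and RT1-A1 each also followed the mean of the ribosomal protein genes in DLS (r = 0.89 and 0.83). Whether binding partners vary together was not tested.

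**Figure D2:**
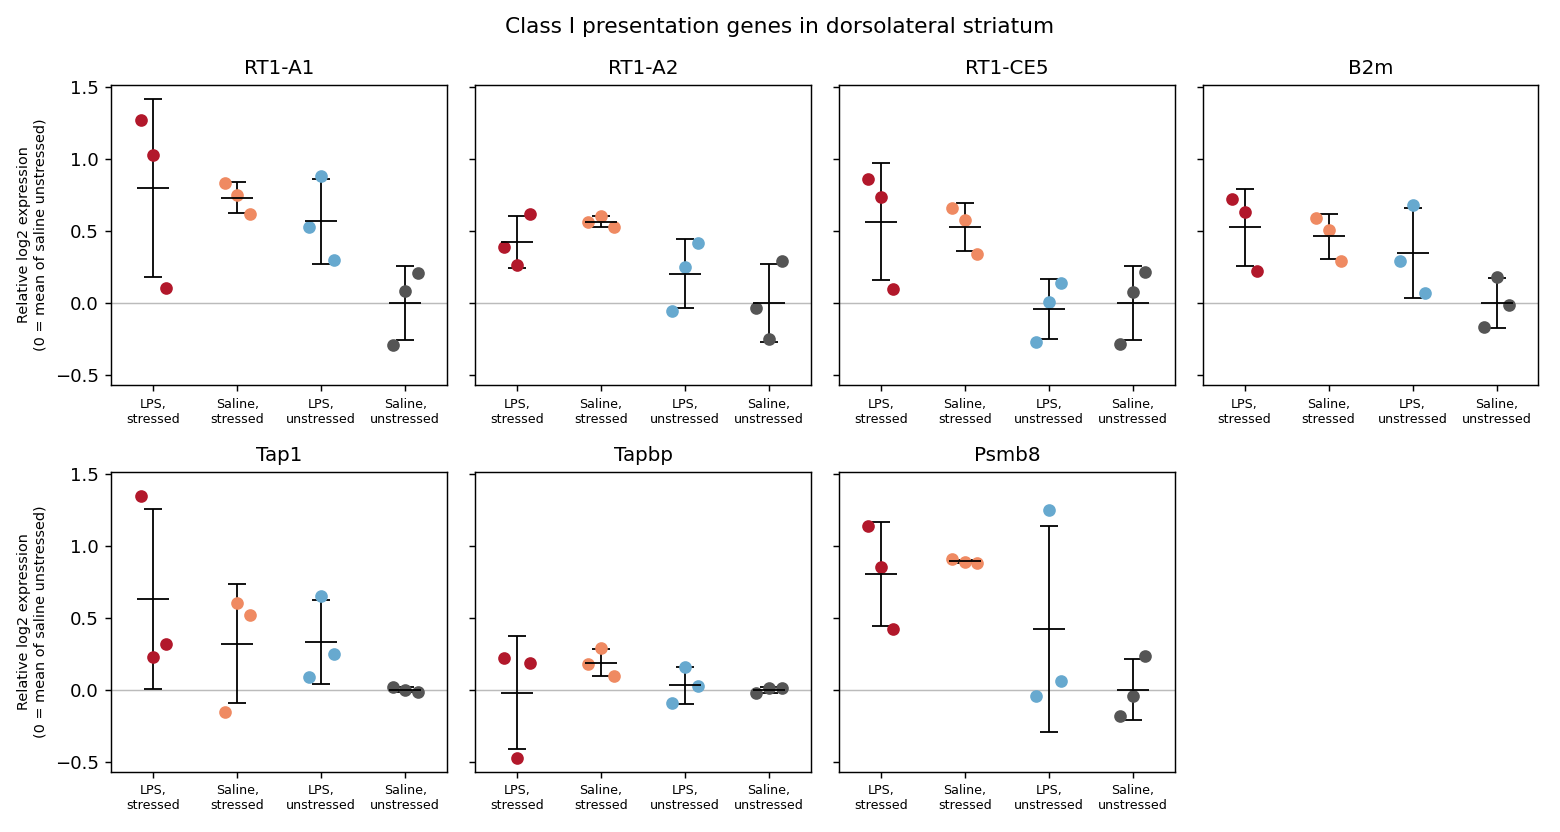
Relative log2 expression of 7 members in each DLS library (points), with the mean and SD of each group of 3 (black), in the order LPS stressed, saline stressed, LPS unstressed and saline unstressed, where 0 is the mean of saline unstressed. Saline stressed libraries of Psmb8, RT1-A1, RT1-A2, RT1-CE5 and B2m all lie above the controls, and LPS stressed replicate 3 of RT1-A1 and RT1-CE5 lies at 0.10, within the range of the controls.

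Among the peptide loading genes Tap1, a transporter subunit, had relative levels of 2.55, 1.17 and 1.24 in LPS stressed libraries, 0.90, 1.52 and 1.43 in saline stressed, 1.06, 1.57 and 1.19 in LPS unstressed and 1.01, 1.00 and 0.99 in saline unstressed. The controls were almost identical and most exposed libraries lay above them, with saline stressed replicate 1 below and LPS stressed replicate 1 far above. Its log2 difference from controls was 0.63 ± 0.29 in LPS stressed rats (0.27 without replicate 1), 0.32 ± 0.29 in saline stressed rats (0.56 without replicate 1 and 0.18 without replicate 2) and 0.33 ± 0.29 in LPS unstressed rats (0.17 without replicate 2). Tapbp, the tapasin gene, was at 1.17, 0.72 and 1.14 in LPS stressed, 1.13, 1.22 and 1.07 in saline stressed, 0.94, 1.12 and 1.02 in LPS unstressed and 0.98, 1.01 and 1.01 in saline unstressed libraries. Its saline stressed libraries all stood just above the controls (log2 difference 0.19 ± 0.18), and its lowest value of all was LPS stressed replicate 2.

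Psmb8, a catalytic subunit of the immunoproteasome, had relative levels of 2.20, 1.81 and 1.34 in LPS stressed libraries, 1.87, 1.85 and 1.84 in saline stressed, 0.97, 2.37 and 1.04 in LPS unstressed and 0.88, 0.97 and 1.18 in saline unstressed. All 6 stressed libraries were above all controls, and among LPS unstressed libraries replicate 2 alone was high. The log2 difference from controls was 0.80 ± 0.29 in LPS stressed rats and 0.89 ± 0.29 in saline stressed rats. Psmb9, its partner subunit, could be read in DLS when the range was widened to 0.7 decades or when LPS stressed replicate 1 was left out. Its log2 difference from controls was 0.61 for saline stressed rats in both readings (adjusted p = 0.527 and 0.359). For LPS stressed rats it was -0.31 in the wider range (adjusted p = 0.896) and 0.24 without that library (adjusted p = 1.00). That library has the digits 200985, and those of the other DLS libraries, aligned at the first digit, run from 412563 to 968664. Without a decimal point it can lie below or above all of them, at nearly the same distance. The wider range placed it below, and a placement above would raise the group mean. The direction for LPS stressed rats in the wider range thus rests on the placement of 1 library and is not known.

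Read by exposed group, saline stressed DLS had 7 of 7 members higher than controls (53.5% of all genes) with a median log2 difference of 0.53. In 6 of 7, all but Tap1, the 3 saline stressed libraries lay above the 3 controls, against 14.9% of all genes. At an unadjusted p under 0.05, 5 of 7 were higher, against 8.3% of all genes, and the smallest adjusted p among the members was 0.294. LPS stressed DLS had 6 of 7 members higher (51.6% of all genes), a median of 0.56, 3 members without overlap (B2m, Tap1 and Psmb8; 3.99% of all genes) and 6 at an unadjusted p under 0.05 (1.7% of all genes), with every adjusted p at 0.908 or above. LPS unstressed DLS had 6 of 7 members higher (53.6% of all genes), a median of 0.33 and 2 members without overlap (RT1-A1 and Tap1; 5.33% of all genes), and none reached an unadjusted p of 0.05. That median was 0.17 without LPS unstressed replicate 2. With array weights 3 members passed for saline stressed rats, 4 for LPS stressed rats and 2 for LPS unstressed rats, B2m and RT1-A1 in each, where 1186, 2507 and 2469 of all 9275 genes passed in the same order. The 3 comparisons share their control libraries. The LPS main effect had 5 of 7 members higher (50.2% of all genes), with a median of 0.17, which was 0.02 without LPS unstressed replicate 2. For the interaction of LPS and stress, 1 of 7 members had a positive value (45.8% of all genes) and the median was -0.28, with no unadjusted p under 0.05 among the members.

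Transcripts of other kinds varied along with some of the members in DLS. The ribosomal protein index, the mean relative log2 of 54 cytosolic ribosomal protein genes, was 0.82, 0.63 and -0.16 in LPS stressed libraries, 0.86, 0.32 and 0.33 in saline stressed, 0.52, 0.72 and -0.20 in LPS unstressed and -0.18, 0.37 and -0.18 in saline unstressed. B2m followed this index over the 12 libraries (r = 0.89, permutation p = 0.00034, adjusted p = 0.00992; rho = 0.86, adjusted p = 0.0189; r = 0.85 without the 2 farthest libraries, 0.90 within groups). So did RT1-A1 (r = 0.83, permutation p = 0.00102, adjusted p = 0.0131; rho = 0.73, adjusted p = 0.0676; r = 0.86 without the 2 farthest, 0.81 within groups). RT1-A2 had r = 0.01 with the index (permutation p = 0.964, adjusted p = 0.979; rho = -0.11, adjusted p = 0.77; r = 0.08 without the 2 farthest), and within groups its r was -0.66. With the index as a covariate all 7 members stayed above 0 for the stress main effect, with a median of 0.27; RT1-A2 was then at 0.49, RT1-CE5 at 0.48, Psmb8 at 0.47, RT1-A1 at 0.27 and B2m at 0.17. The other members had r of 0.68 (Psmb8), 0.52 (RT1-CE5), 0.35 (Tap1) and 0.01 (Tapbp) with the index. For the stress main effect 53 of the 54 ribosomal protein genes were themselves higher, with a median of 0.31. In NAc the index (68 genes) had r = 0.75 with B2m (adjusted permutation p = 0.0341) and 0.73 with RT1-A1 (adjusted permutation p = 0.0846). Within groups these were 0.80 and 0.68, and without the 2 farthest libraries 0.21 and -0.07. The other NAc members had r between 0.08 (RT1-CE5) and 0.61 (Psmb9). The part of this index in the members' values was not tested further.

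**Figure D3:**
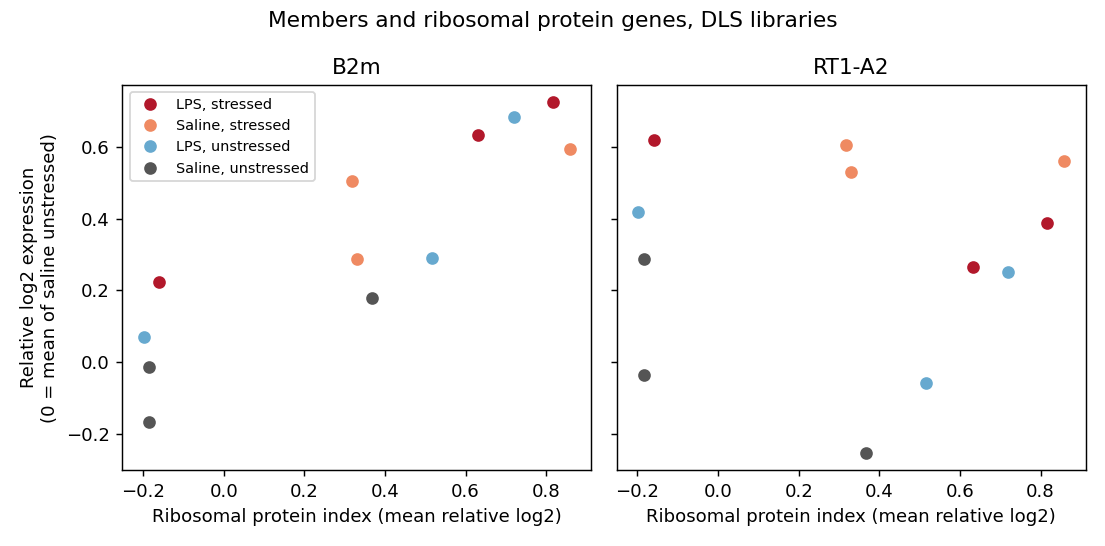
Relative log2 expression of B2m (left) and RT1-A2 (right) is plotted against the ribosomal protein index for the 12 DLS libraries, coloured by group. B2m climbs with the index (r = 0.89), whereas RT1-A2 has r = 0.01 over all libraries and -0.66 within groups.

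The microglia index (14 genes) was 0.15, 0.17 and 0.30 in LPS stressed DLS libraries, 0.46, 0.46 and 0.05 in saline stressed, 0.10, 0.41 and 0.08 in LPS unstressed and 0.01, -0.09 and 0.08 in saline unstressed. For the stress main effect 11 of 14 microglia markers were higher (median 0.17), as were 7 of 7 markers of leptomeninges and fibroblasts (median 0.37), 8 of 8 genes of classical complement (0.31), 8 of 12 astrocyte markers (0.21) and 8 of 12 markers of endothelium and pericytes (0.07). At an unadjusted p under 0.05 these lists had 4 microglia markers, 4 of leptomeninges and fibroblasts, 4 complement genes, 2 astrocyte markers and 0 of endothelium and pericytes higher. Over all genes 3.72% were higher at that level. In the same lists 1 microglia marker was lower at that level. Oligodendrocyte markers went 4 higher and 7 lower (median -0.09). Striatal neuron markers went 6 higher and 8 lower (median -0.04), with 1 lower at an unadjusted p under 0.05. None of these genes passed after adjustment. A further list of 20 genes joins class I receptors with genes of CD8 T or natural killer cells, and not all of them are particular to those cells. Of these, 3 stood above 1 in all libraries (Ptprc, Lck and Lilrb3) and 2 could be tested. Cd8a was listed as 1 in 5 of the 24 libraries, Cd3e in 2, Gzmb in 19 and Klrb1c in 23. The part of these cell types in the members' values was not tested.

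Other genes of the class I pathway, from a list that also holds chaperones and regulators, showed no common direction: 10 of 15 were higher and 5 lower in stressed DLS, with a median of 0.06. Psme1, a subunit of the proteasome activator that favours class I peptides (0.50 ± 0.19), and Irf1, a transcription factor of the class I promoters (0.26 ± 0.11), had the smallest p in that list. Calr (0.06 ± 0.13), Canx (-0.08 ± 0.09) and Pdia3 (0.02 ± 0.10), which fold new heavy chains, were nearly level. Of other heavy chains 6 of 7 readable ones were higher (median 0.20), led by RT1-CE4 (0.51 ± 0.15), which shares the RT1-CE5 locus. The standard proteasome subunits were higher in 10 of 14 cases (median 0.18).

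Interferon response genes were higher in 15 of 18 cases with a median of 0.17. Ifi44, an interferon-induced gene, had the smallest p (0.48 ± 0.21). Interferon receptor and JAK-STAT genes had 3 higher and 6 lower, with Jak2 at -0.37 ± 0.15. The MHC class II list of 14 genes also holds genes of its processing pathway. Of these 14, 2 could be read, the lysosomal protease Ctss (0.50 ± 0.14) and the thiol reductase Ifi30 (0.32 ± 0.14). No class II chain could be read in DLS. All adjusted p in these lists were 0.637 or above.

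In NAc the members showed no such difference. All 8 readable genes were on average slightly lower in stressed than in unstressed libraries (50.6% of all genes were higher), between -0.26 ± 0.19 for Psmb8 and -0.04 ± 0.13 for RT1-A1, with a median of -0.07. No member reached an unadjusted p of 0.05 in any of the 6 NAc comparisons, and in none did the 3 libraries of an exposed group stand clear of the 3 controls. Over all 10616 genes, between 95 and 377 reached that p in each comparison. Of all genes 2.11%, 4.84% and 3.41% stood clear above the controls for stress alone, LPS alone and both exposures. Clear below them were 1.38%, 4.51% and 3.78%. At such shares, counts of 0 among 8 members do not set the members apart. The 95% interval for B2m ran from -0.27 to 0.15 and that for RT1-A2 from -0.36 to 0.19, while that for Psmb8 ran from -0.68 to 0.16, so a difference of moderate size in Psmb8 was not detectable with these libraries. Adjusted p was 1.00 for each member, and 95 genes in all had an unadjusted p under 0.05.

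RT1-A1 in NAc had relative levels of 0.83, 0.88 and 0.92 in LPS stressed libraries, 0.89, 0.77 and 1.40 in saline stressed, 0.87, 0.92 and 0.98 in LPS unstressed and 1.06, 0.90 and 1.05 in saline unstressed. B2m was at 0.94, 0.93 and 0.96 in LPS stressed, 0.97, 0.90 and 1.20 in saline stressed, 1.04, 1.01 and 1.08 in LPS unstressed and 1.16, 0.84 and 1.03 in saline unstressed libraries. Psmb8 was at 0.63, 0.75 and 1.24 in LPS stressed, 0.97, 0.68 and 1.10 in saline stressed, 1.35, 0.85 and 1.11 in LPS unstressed and 1.10, 0.82 and 1.11 in saline unstressed libraries. In each of these genes every exposed group overlapped the controls. For B2m all LPS stressed libraries lay below all LPS unstressed ones, but both groups lay inside the range of the controls. That order was not tested, and its share over all genes was not counted. Saline stressed replicate 2 was the lowest or second lowest of the region in RT1-A1, B2m and Psmb8. Psmb9 was at 0.92, 0.47 and 0.91 in LPS stressed, 1.05, 0.69 and 1.08 in saline stressed, 0.90, 0.73 and 0.61 in LPS unstressed and 1.26, 0.87 and 0.91 in saline unstressed libraries. Its LPS main effect of -0.39 ± 0.20 was the lowest of the members (adjusted p = 0.823). RT1-A2, RT1-CE5, Tap1 and Tapbp lay between relative levels of 0.68 and 1.42 in all NAc libraries. For the LPS main effect 2 of 8 members were higher, RT1-CE5 (0.25 ± 0.14) and Psmb8 (0.01 ± 0.19), against 49.9% of all genes, and for stress alone 1 of 8 (B2m, 0.02 ± 0.14), against 52.5%.

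**Figure D4:**
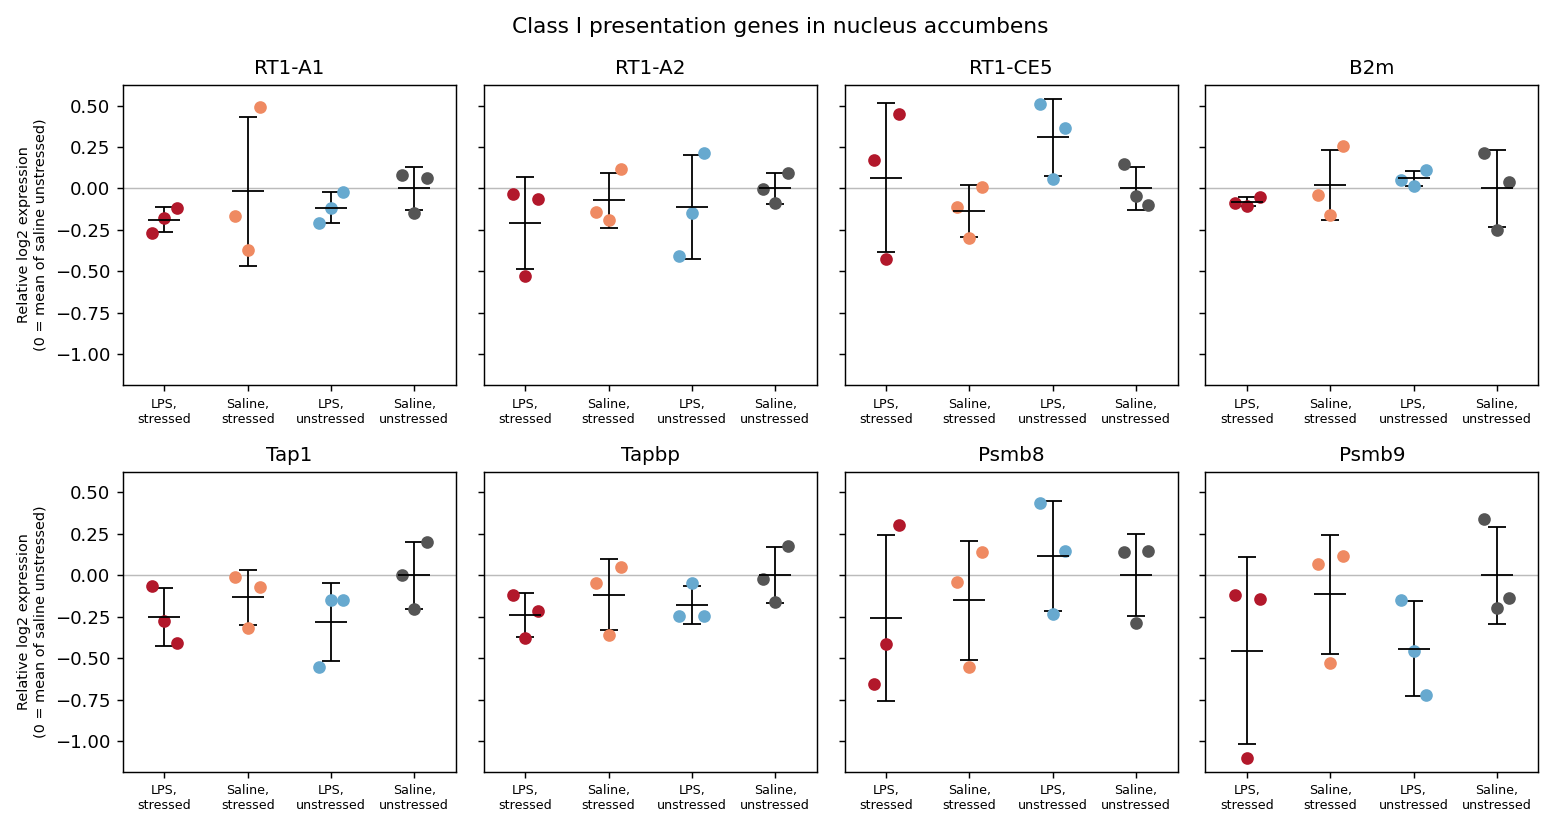
Relative log2 expression of 8 members in each NAc library (points), with the mean and SD of each group of 3 (black), in the order LPS stressed, saline stressed, LPS unstressed and saline unstressed, where 0 is the mean of saline unstressed. Each exposed group's range overlaps that of the controls for every member, and the lowest point is Psmb9 in LPS stressed replicate 2 at -1.10.

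Among other lists in NAc, the class II chain RT1-Ba was higher in stressed libraries (0.53 ± 0.17, unadjusted p = 0.0105 in limma's fit over all genes, adjusted p = 1.00), and 6 of 18 interferon response genes and 2 of 14 standard proteasome subunits were higher. Ribosomal protein genes were higher in 6 of 68 cases.

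NAc was then set against DLS over all 24 libraries, for the 5 members that could be read in both. Averaged over the 4 groups of each region, the NAc had less B2m (log2 difference -0.41 ± 0.08, adjusted p = 0.000162) and less RT1-CE5 (-0.42 ± 0.10, adjusted p = 0.00148), and more Tapbp (0.29 ± 0.08, adjusted p = 0.00251). RT1-A2 (-0.18 ± 0.09, adjusted p = 0.0659) and Tap1 (-0.06 ± 0.12, adjusted p = 0.692; 95% interval -0.30 to 0.19) did not pass. RT1-A2 passed in 5 of the 24 fits that left out 1 library. So 3 of 5 members were called, against 66% of all 7667 genes tested, a share that sets the members apart in no way. B2m, on the scale where 1 is the DLS control mean, ranged from 0.79 to 1.13 in NAc libraries (median 0.94) and from 0.89 to 1.65 in DLS libraries (median 1.22). The ranges overlapped. Tapbp ranged from 1.07 to 1.57 in NAc (median 1.26) and from 0.72 to 1.22 in DLS (median 1.04), again with overlap. These contrasts include the exposed groups. In the saline unstressed libraries alone, the NAc mean log2 relative to the DLS mean was -0.08 for B2m and -0.22 for RT1-CE5. It was 0.47 for Tapbp, 0.21 for RT1-A2 and 0.43 for Tap1. Differences between the 2 control groups were not tested. Standard proteasome subunits were lower in NAc in 13 of 13 cases (12 called) and ribosomal protein genes in 17 of 17, while 8 of 9 interferon receptor and JAK-STAT genes were higher (6 called).

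**Figure D5:**
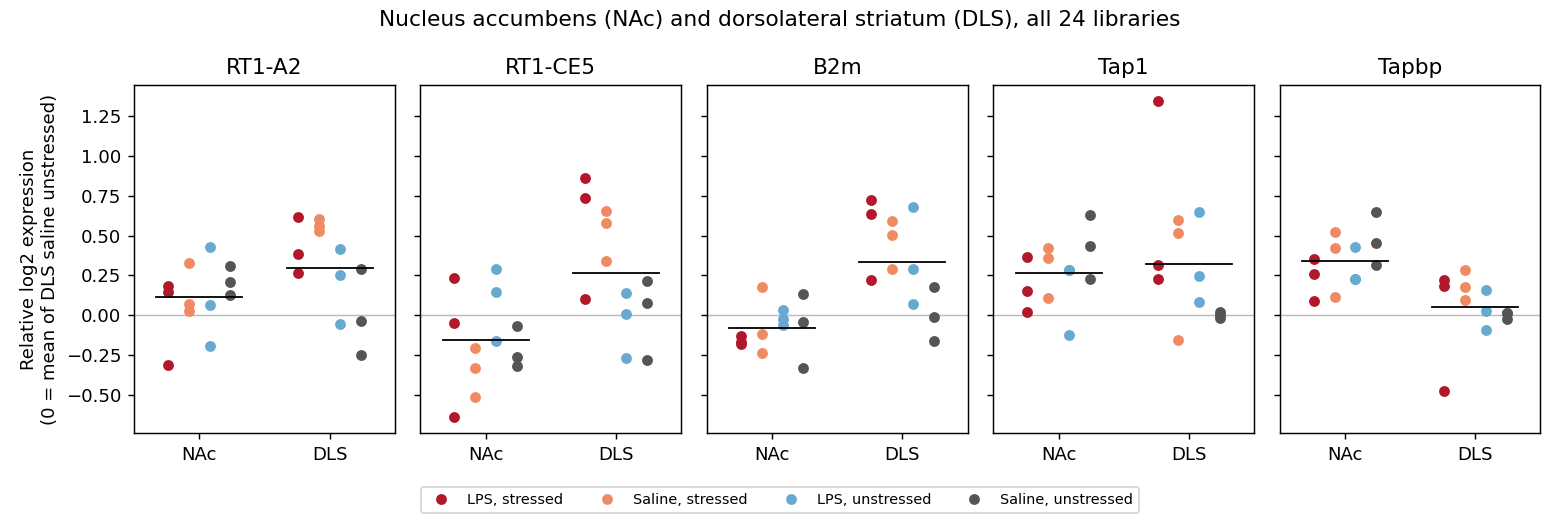
Relative log2 expression of 5 members in NAc (left of each panel) and DLS (right), all 24 libraries coloured by group, with the mean of each region as a line and 0 at the mean of DLS saline unstressed. Averaged over the 4 groups, B2m and RT1-CE5 lie lower and Tapbp higher in NAc, and the 2 regions overlap in every panel.

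The difference between the regions in the stress effect was tested in the same fit. The NAc effect was below the DLS effect in 5 of 5 members (47.7% of all genes had a positive value), by -0.76 ± 0.21 for RT1-CE5, -0.48 ± 0.17 for RT1-A2, -0.38 ± 0.16 for B2m, -0.36 ± 0.24 for Tap1 and -0.16 ± 0.15 for Tapbp. RT1-CE5 had the second smallest p of 7667 genes, and 3 of 5 members were under an unadjusted p of 0.05, against 1.57% of all genes in that direction. After adjustment none passed (adjusted p = 0.934; 243 genes at an unadjusted p under 0.05), so the stress effects are not shown to differ between regions. With array weights 570 genes passed, B2m (adjusted p = 0.0383) and RT1-CE5 (0.0309) among them. For the LPS effect Tap1 had the largest difference (-0.52 ± 0.24, adjusted p = 0.993).

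Genes whose pattern over the libraries was most like the mean of the 7 members that could be read within DLS and, separately, within NAc were ranked among 9031 genes by the smaller of the Pearson r in DLS and NAc, each over 12 libraries. The first 5 were Rom1 (r of 0.79 in DLS and 0.75 in NAc), Higd1b (0.75 and 0.77), Ube2l6 (0.93 and 0.75), Npc2 (0.74 and 0.81) and C2 (0.83 and 0.72). Ube2l6 encodes the enzyme that conjugates the interferon-induced protein ISG15, C2 is a complement component encoded within the MHC, Npc2 is a lysosomal cholesterol carrier, and Rom1 is best known from photoreceptors. Of the members themselves, measured against a mean that includes them, Psmb8 (0.95), RT1-A1 (0.90) and B2m (0.88) had the highest r in DLS and Tapbp (0.35) the lowest. These r are descriptions of libraries that share groups and ribosomal index.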

How the data were processed

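RNA was measured by sequencing in 24 bulk tissue libraries, 8 groups of 3. Per the labels' protocols, poly(A) RNA was selected and directional libraries were made. Per the submitters' processing notes, STAR 2.6.25.17 and Cuffdiff 2.2.1 were used; what each tool did is not given in the sources used here, nor are the annotation and build. The authors deposited 1 table headed as FPKM, but its values are digit strings without a decimal point, and they were treated as a score. Of 415272 values, 97026 are listed as 1 and 12 are blank. No 2 libraries held identical values.

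For each gene the log10 digits were laid around a circle whose circumference stands for a factor of 10. Genes whose libraries lay within 0.5 decades (3.162-fold), none of them listed as 1 or blank, were read as relative log2 values: 9275 genes in DLS, 10616 in NAc and 7667 over both. The planned test for FPKM-like values, limma on a log2 scale, was kept. A pseudocount cannot be applied to such digits. Changes beyond the range are dropped or misread, at times with the sign turned; the procedure was tested on simulated digits.

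Linear models used limma 3.58.1 (R 4.3.3; one mean per group, standard empirical Bayes, Benjamini-Hochberg over all genes tested, threshold 0.05), for each region and over all 24 libraries. Correlations used permutation tests in Python 3.11.15. Promoters came from RefSeq (GRCr8), and all 9 members matched by symbol. The members are all named. From other lists the text gives counts and up to 4 genes with the smallest unadjusted p in a comparison, and Calr, Canx, Pdia3 and the genes with the closest pattern besides. Calr, Canx and Pdia3 were chosen after their values were seen. Members and lists were chosen with earlier results of these data known. Alternatives were rescaling, array weights, robust empirical Bayes, other ranges, 1 library listed as 1, the ribosomal index as a covariate, a block of library numbers and leaving out each library.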

Additional observations from a re-analysis of the deposited data

Results flagged for a closer look

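Among the members that could not be read over all 24 libraries, RT1-A1 was noticed. Every library of an exposed group lay on one side of its control mean in NAc and on the other side in DLS. For LPS stressed rats the log2 difference from controls was -0.19 ± 0.07 in NAc and 0.80 ± 0.62 in DLS (SD, n = 3 each), a difference between regions of -0.99. For LPS unstressed rats it was -0.12 ± 0.09 in NAc and 0.57 ± 0.29 in DLS (SD, n = 3 each), a difference of -0.68. These differences were not tested, since RT1-A1 could not be read over all 24 libraries within 0.5 decades. Within 0.7 decades its region difference for the LPS main effect was -0.46, with an adjusted p of 0.986 in limma. RT1-A1 belongs to a family of near-identical copies, so its value is uncertain. The pattern is not particular to RT1-A1. In LPS stressed rats B2m, Tap1 and RT1-A2 also lay above the control mean in every DLS library and below it in every NAc library. Tap1 did so in LPS unstressed rats as well. In NAc the exposed libraries of each of these genes overlapped the controls. The share of all genes with such a pattern was not counted, so the pattern is not shown to set the members apart.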

How the results depend on the processing

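With array weights, which let libraries differ in precision, the genes called in DLS numbered 217 for the stress main effect (members 3: Psmb8, RT1-A1 and RT1-CE5), 1186 for stress alone (3: B2m, Psmb8 and RT1-A1), 2469 for LPS alone (2: B2m and RT1-A1) and 2507 for both exposures (4: B2m, Psmb8, RT1-A1 and RT1-CE5), and in NAc 634 for LPS alone (0 members). The region difference then had 570 calls for stress (2: B2m and RT1-CE5) and 5 for LPS. A range of 0.7 decades gave 1 call for LPS alone in NAc and 5 member calls between regions (with RT1-A1 and Psmb8), and 0.3 decades gave 2364 and 0 by having fewer genes to test. Of 978 member values under alternatives, 941 kept direction and side of the threshold, 19 newly passed it and 18 changed sign. Under array weights those were Tapbp in DLS for stress (-0.0327) and LPS alone (-0.0494), RT1-A2 in DLS for LPS alone (-0.0943), Psmb9 in NAc for stress (0.0854), Tap1 between regions (0.0106, and 0.0123 rescaled) and Tapbp for the region difference of stress (0.0344); with the ribosomal index Tapbp was 0.00485 for both exposures in DLS. The cause was not tested. Leaving out each library in turn, values ran from -0.0346 to 0.0921 for Tapbp and -0.19 to 0.0709 for RT1-CE5 (LPS alone, DLS), -0.14 to 0.20 for Tapbp (both exposures, DLS), -0.15 to 0.10 for Psmb9 and -0.17 to 0.0437 for RT1-A1 (stress, NAc), and -0.12 to 0.0334 for Tap1 between regions. Calls between regions ran from 4846 to 5354, with 3 to 4 members. RT1-A2 passed there (adjusted p 0.0236 to 0.0494) without DLS saline unstressed 2, DLS LPS unstressed 1, NAc saline stressed 3, NAc LPS unstressed 3 or NAc LPS stressed 1. In NAc, calls ran from 0 to 1 for stress alone (1 without saline unstressed 3) and from 0 to 1 for LPS alone (1 without saline unstressed 2); the other within-region counts and the region differences stayed at 0. Library numbers pair no samples by label, and correlations of their deviations ran from -0.52 to 0.33; with the replicate block 4945 genes and 3 members were called between regions and 0 for both region differences. Absolute levels, depth and differences over 3.162-fold cannot be recovered from these digits, and 3 libraries per group limit the precision.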
